A study of Mus musculus with 6 samples.

Results

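The proteasome genes of LLC cells, a mouse cancer line from a Lewis lung carcinoma, were examined after treatment with STM2457, an inhibitor of the m6A-writing enzyme METTL3. The genes were all those whose symbol in the deposited expression table is Psm, a letter from a to g and a number, with at most 1 further letter. Rows marked as pseudogenes were left out. This gave 49 genes of the 55367 rows in the table. They comprise 7 alpha and 7 constitutive beta subunits of the 20S core, 3 immunoproteasome subunits, 2 tissue-specific core subunits, 6 ATPases and 3 other subunits of the 19S base, 8 subunits of the 19S lid, 6 activators or inhibitors and 7 assembly chaperones. RNA was sequenced from 3 libraries of cells given 5 µM STM2457 for 46 h and from 3 libraries of cells given the solvent DMSO for 46 h. Per the labels both groups are wild-type cells of the same line grown in serum-containing medium, and there is no other allele or agent. Separate cultures are not named in the labels, so the spread between libraries, and every p-value here, may be technical.

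The proteasome is the cell's main machine for degrading proteins tagged with ubiquitin. Proteins are cut inside the barrel-shaped 20S core, whose alpha rings form the gate and whose beta rings carry the catalytic sites. The 19S particle caps the barrel: its lid removes ubiquitin, and the ATPases of its base unfold the substrate and thread it into the core. In cells exposed to interferon, and in many immune cells, the catalytic beta subunits are replaced by immunoproteasome subunits that favour peptides for MHC class I. The subunit genes are known to be induced together by the transcription factor NRF1 (Nfe2l1) when proteasome activity falls short.

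The libraries held 17671712 to 17917205 reads in genes, recovered from the deposited log2 values, and all levels below are normalised reads, which are reads divided by a size factor of each library. Such levels are relative to the library and show neither the number of cells nor the amount of RNA per cell. Folds are STM2457 over DMSO from limma-voom on the recovered reads, and a gene is called where limma on the deposited log2 values gave a Benjamini-Hochberg adjusted p under 0.05. Genes that mark lung epithelium were nearly absent, although the labels name lung and a cancer cell: the 5 epithelial markers summed to 0 to 9.9 normalised reads in STM2457 and 11.9 to 14.0 in DMSO, with Epcam and Cdh1 at 0. The 4 alveolar markers summed to 1 to 5 in STM2457 and 0 to 4 in DMSO, with Nkx2-1 at 0. Vim, a marker of the mesenchymal state, measured 45724 to 46859 in STM2457 and 51753 to 54321 in DMSO. The 3 fibroblast markers summed to 179.5 to 196.3 in STM2457 and 246.9 to 292 in DMSO, and the 2 endothelial markers to 3 to 5 in STM2457 and 1 to 4 in DMSO. Of the fibroblast markers Col1a2 was called lower (0.465-fold), and the part of these differences in the results below was not tested. Of 5 immune markers, Cd3e, Adgre1 and Itgam were at 0, Ptprc had at most 1 read in a library, and only Cd68 was expressed, so that the list summed to 86.2 to 109 in STM2457 and 89.3 to 110 in DMSO. Mettl3 itself measured 499, 451 and 513 normalised reads in STM2457 and 469, 601 and 540 in DMSO. The groups overlap (fold 0.912, 95% interval 0.815 to 1.02, adjusted p = 0.15), but Mettl3 was called lower with upper-quartile centring (adjusted p = 0.040), with median centring (adjusted p = 0.035) and without DMSO replicate 1. As STM2457 acts on the protein, this level is no check of the treatment. The exons of Mettl3 overlap those of Tox4 on the other strand.

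Of the 49 proteasome genes, 44 passed the minimum mean level of 10 reads and entered the test. After STM2457, 13 were called higher and 8 lower, and 23 were not called. That is 29.5% higher and 18.2% lower, where 30.7% and 25.7% of all 12618 tested genes were called in these directions. In all, 47.7% of the tested proteasome genes were called, against 56.3% of all genes. The split depends on the scaling of the libraries: with each library centred on its upper quartile 10 were higher and 17 lower, and centred on its median 10 were higher and 15 lower. The same centring moved all genes in the same way, with 3868 higher and 3240 lower as deposited, 2819 and 4814 with the upper quartile, and 2941 and 4621 with the median. Changes were small in size. The median proteasome gene differed 1.06-fold in either direction and the median of all tested genes 1.16-fold. No proteasome gene differed by 1.5-fold, which 12.4% of all tested genes did, and 3 of 44 differed by at least 1.25-fold, which 32.8% of all tested genes did. The proteasome genes are highly expressed, with a median of 2760 normalised reads against 546 for all tested genes. Over genes with a mean of at least 1000 normalised reads, 15 of 35 proteasome genes (42.9%) and 65.9% of 4214 genes were called, the median size was 1.05-fold and 1.12-fold, and 2 of the 35 and 19.4% of the 4214 differed by at least 1.25-fold. The libraries of the groups did not overlap in 26 of the 44 (59.1%), 16 with STM2457 higher and 10 with it lower, against 61.8% of all tested genes. Together the 49 genes took 0.690% of the reads in STM2457 and 0.673% in DMSO.

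**Figure D1:**
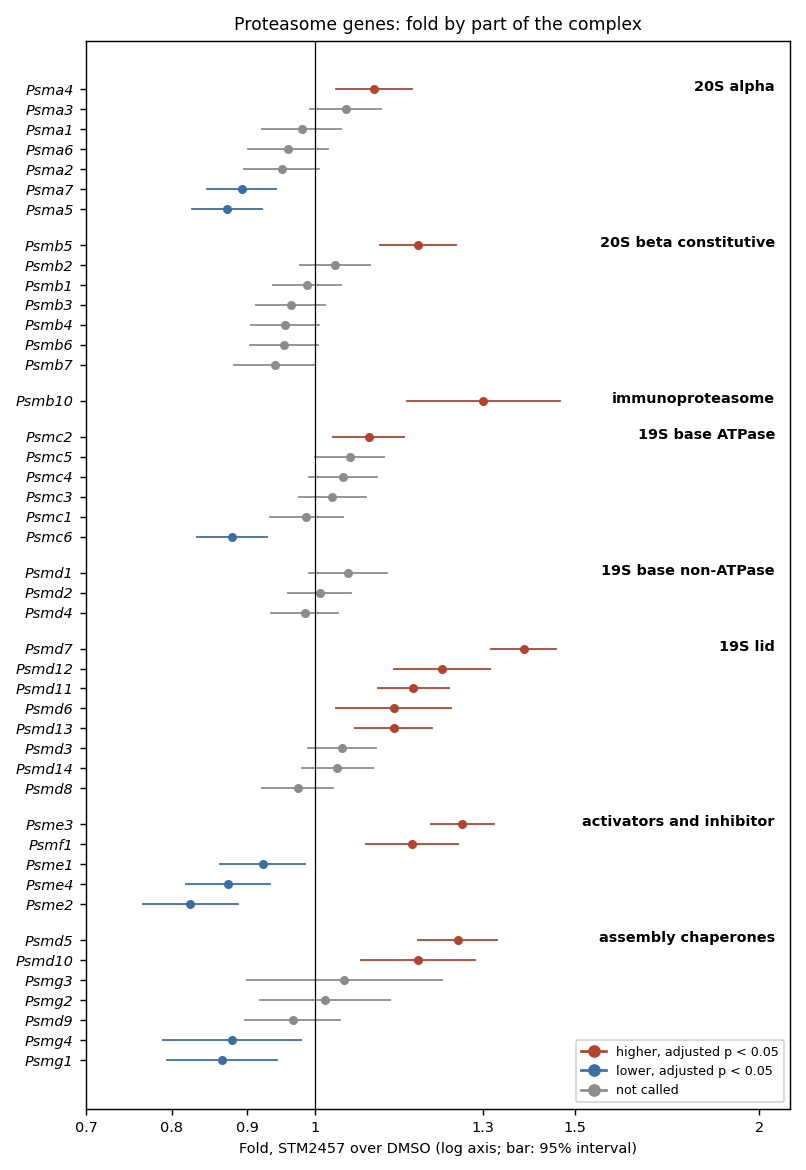
Fold of each tested proteasome gene, STM2457 over DMSO, on a log axis, grouped by part of the complex; points are limma-voom folds with 95% intervals, red and blue mark genes called higher and lower by limma on the deposited values, and grey marks genes not called. All 8 lid genes but Psmd8 lie to the right of 1, with Psmd7 at 1.39, while 5 of the 7 alpha genes lie to the left of it.

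In the lid of the 19S particle 5 of 8 genes were called higher and 0 lower, and 4 higher and 1 lower (Psmd8) with either centring. Counts by part stand beside 30.7% of all tested genes called higher, 25.7% lower and 56.3% in all, and 5 called of 8 is near the last of these. Psmd7, which encodes the lid subunit Rpn8, the partner of the deubiquitinase Rpn11, had 5614, 5784 and 5609 normalised reads in STM2457 and 4059, 4050 and 4166 in DMSO. The groups lie far apart, and at 1.39-fold (95% interval 1.32 to 1.46, adjusted p = 8.8e-11) this was the largest fold and the smallest p among the tested proteasome genes. Psmd12, for Rpn5, had 3339, 3239 and 3359 normalised reads in STM2457 and 3023, 2534 and 2616 in DMSO. Every STM2457 library lay above every DMSO library, and DMSO replicate 1 was the highest of its group (1.22-fold, 1.13 to 1.32, adjusted p = 1.3e-04). Psmd11, for Rpn6, had 3180, 3205 and 3174 in STM2457 and 2827, 2606 and 2772 in DMSO, again with no overlap (1.17-fold, 1.10 to 1.23, adjusted p = 3.7e-05). Psmd13, for Rpn9, had 2196, 2187 and 2208 in STM2457 and 2068, 1875 and 1891 in DMSO (1.13-fold, 1.06 to 1.20, adjusted p = 0.0010). Its STM2457 libraries were closely alike and all above the DMSO libraries. Psmd13 exons overlap those of Sirt3 on the other strand. Psmd6, for Rpn7, had 1252, 1138 and 1203 in STM2457 and 1178, 958 and 1050 in DMSO. Here the groups overlap, and the call (1.13-fold, 1.03 to 1.24, adjusted p = 0.021) was lost in 6 of 13 alternatives, up to an adjusted p of 0.12: with either centring and without STM2457 replicate 1 or 3 or DMSO replicate 2 or 3. The deubiquitinase gene Psmd14 (1.04-fold, 0.980 to 1.09), Psmd3 for Rpn3 (1.04-fold, 0.990 to 1.10) and Psmd8 for Rpn12 (0.974-fold, 0.922 to 1.03) were not called. Summed over the 8 genes, the lid had 27971, 28135 and 27693 normalised reads in STM2457 and 25672, 23766 and 24993 in DMSO, a ratio of 1.13. The sums averaged 27933 in STM2457 and 24810 in DMSO. Psmd7 made a large part of this difference, averaging 5669 in STM2457 and 4092 in DMSO.

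In the base of the 19S particle Psmc2 was called higher and Psmc6 lower of 6 ATPase genes, and none of 3 other genes was called. Among all tested genes 56.3% were called, 30.7% higher and 25.7% lower. With either centring Psmc6 alone of the ATPases was called, and with the upper quartile Psmd4 was called lower. Psmc6, for the ATPase Rpt4, had 3354, 3410 and 3291 normalised reads in STM2457 and 3815, 3960 and 3670 in DMSO. All STM2457 libraries were below all DMSO libraries (0.879-fold, 0.832 to 0.928, adjusted p = 2.2e-04). Psmc2, for Rpt1, had 2884, 2836 and 2726 in STM2457 and 2587, 2647 and 2531 in DMSO, without overlap (1.09-fold, 1.03 to 1.15, adjusted p = 0.011). Its call was lost with either centring (adjusted p = 0.21 with the upper quartile), without STM2457 replicate 1 and without DMSO replicate 3. Psmc5 for Rpt6 and Psmc4 for Rpt3 lay higher in every STM2457 library but were not called (1.06-fold, 1.00 to 1.11 and 1.04-fold, 0.991 to 1.10). Psmc3 for Rpt5 (1.03-fold) and Psmc1 for Rpt2 (0.986-fold) were not called. Psmd2, which encodes the scaffold Rpn1 and had the most reads of the 49 genes, measured 9218, 9131 and 9132 normalised reads in STM2457 and 9287, 8922 and 9058 in DMSO. These groups overlap (1.01-fold, 0.960 to 1.06). Psmd1 for the scaffold Rpn2 (1.05-fold, 0.991 to 1.12) and Psmd4 for the ubiquitin receptor Rpn10 (0.984-fold, 0.933 to 1.04) were not called either. The ATPase genes summed to 18637, 18612 and 18107 normalised reads in STM2457 and 18532, 18325 and 18144 in DMSO.

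In the alpha rings 2 of 7 genes were called lower and 1 higher, and 4 lower and 0 higher with either centring. Psma5, for subunit alpha 5, had 2620, 2582 and 2542 normalised reads in STM2457 and 3056, 2899 and 2926 in DMSO. The groups do not overlap (0.872-fold, 0.826 to 0.921, adjusted p = 1.1e-04). Psma7, for alpha 4, had 3732, 3772 and 3673 in STM2457 and 4076, 4098 and 4359 in DMSO, all STM2457 libraries lying lower (0.892-fold, 0.846 to 0.941, adjusted p = 7.0e-04). Psma4, for alpha 3, had 2477, 2471 and 2468 in STM2457 and 2338, 2124 and 2307 in DMSO. Its groups do not overlap (1.10-fold, 1.03 to 1.16, adjusted p = 0.0086), but the call was lost with either centring (adjusted p = 0.14 with the upper quartile) and without DMSO replicate 2. Exons of Psma4 and Psma5 are also covered by opposite-strand genes (AY074887 and 1700010K24Rik). Psma1, Psma2, Psma3 and Psma6 were not called, with folds of 0.949 for Psma2 to 1.05 for Psma3. With either centring Psma2 and Psma6 were also called lower. The alpha genes summed to 21881, 21605 and 21115 normalised reads in STM2457 and 23111, 21505 and 22518 in DMSO, with overlap between the groups.

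Of the 7 constitutive beta genes, Psmb5 was called higher and none lower, and with either centring Psmb5 was higher and Psmb3, Psmb4, Psmb6 and Psmb7 were lower. Psmb5 encodes the catalytic subunit beta 5, which cuts after hydrophobic residues and is the main target of proteasome inhibitor drugs. It had 1923, 1879 and 1796 normalised reads in STM2457 and 1628, 1565 and 1574 in DMSO. Every STM2457 library lay above every DMSO library (1.17-fold, 1.11 to 1.25, adjusted p = 4.9e-05). The gene for the catalytic subunit beta 1, Psmb6, had 2783, 2770 and 2673 in STM2457 and 2858, 2862 and 2908 in DMSO. It lay lower in all STM2457 libraries and was not called (0.953-fold, 0.904 to 1.01, adjusted p = 0.12). Psmb7, for the catalytic subunit beta 2, had 1643, 1708 and 1522 in STM2457 and 1748, 1727 and 1708 in DMSO; STM2457 replicate 2 and DMSO replicate 3 both stood at 1708 (0.939-fold, 0.882 to 1.00, adjusted p = 0.089). Psmb7 exons overlap those of Nek6 on the other strand. The non-catalytic Psmb1 (0.988-fold), Psmb2 (1.03-fold), Psmb3 (0.963-fold) and Psmb4 (0.955-fold) were not called. The 7 genes summed to 22165, 21806 and 20978 normalised reads in STM2457 and 22065, 21679 and 21880 in DMSO, again with overlap.

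**Figure D2:**
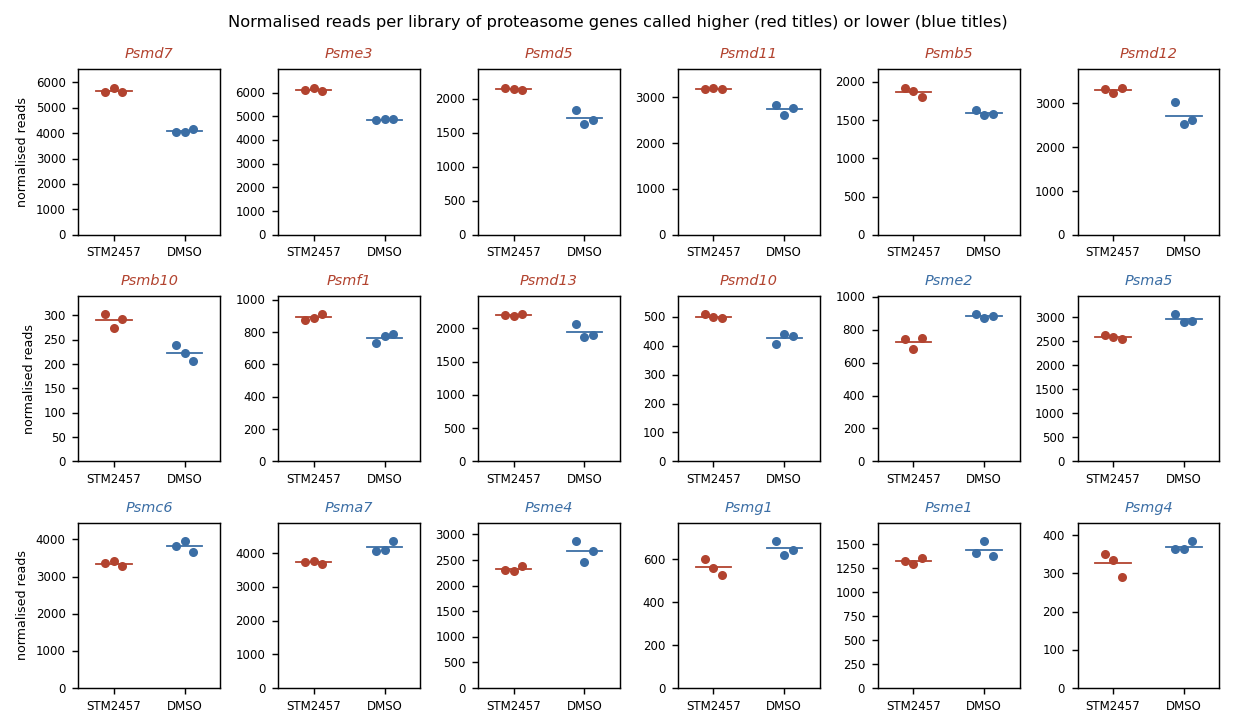
Normalised reads of the 10 proteasome genes called higher with the smallest adjusted p (red titles) and the 8 called lower (blue titles); each point is a library, 3 per group with STM2457 left of DMSO, the line is the group mean, and each axis starts at 0. In all 18 genes, which were picked by adjusted p, the groups do not overlap, as in 61.8% of all tested genes. Psmd6, called higher but not drawn, has groups that overlap. The distance between the means is small beside the level. Psmb5, for example, had 1923, 1879 and 1796 reads in STM2457 and 1628, 1565 and 1574 in DMSO.

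Of the 3 immunoproteasome genes, Psmb8 and Psmb9 were barely detected in either group. Psmb8, which replaces beta 5, had 0, 0 and 1 reads in STM2457 and 0, 0 and 3 in DMSO. Psmb9, which replaces beta 1, had 8, 4 and 5 reads in STM2457 and 4, 5 and 12 in DMSO. Both lie under the 10 reads needed for testing, and a library with 0 reads allows up to 3, which is 0.167 to 0.170 CPM. Psmb10, which replaces beta 2, was the exception, with 302, 275 and 293 normalised reads in STM2457 and 240, 222 and 207 in DMSO. Its groups do not overlap, and it was called higher (1.30-fold, 1.15 to 1.47, adjusted p = 3.6e-04). Per 100 reads of its constitutive partner Psmb7 there were 18.4, 16.1 and 19.3 reads of Psmb10 in STM2457 and 13.8, 12.9 and 12.1 in DMSO. That ratio averaged 17.9 ± 1.63 in STM2457 and 12.9 ± 0.819 in DMSO (SD, n = 3 each), and the exact two-sided permutation test gave p = 0.10, the smallest that 3 against 3 allows (adjusted over the 3 pairs, p = 0.30). For Psmb8 and Psmb5 the ratio averaged 0.0184 per 100 in STM2457 and 0.0638 in DMSO, with an exact permutation p of 1. For Psmb9 and Psmb6 it averaged 0.205 in STM2457 and 0.243 in DMSO (exact permutation p = 0.90). Psmb8 and Psmb9 lie on chromosome 17 in the MHC region, on either side of Tap1, Psmb8 at chr17:34197721-34201454 and Psmb9 at chr17:34181987-34187764. Exons of Psmb9 overlap those of Tap1 on the other strand. The core subunits of other tissues were at the floor: Psma8, known from testis, had 0 reads in all 6 libraries, and Psmb11, known from thymus, had 0 in STM2457 and 2, 1 and 0 in DMSO.

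**Figure D3:**
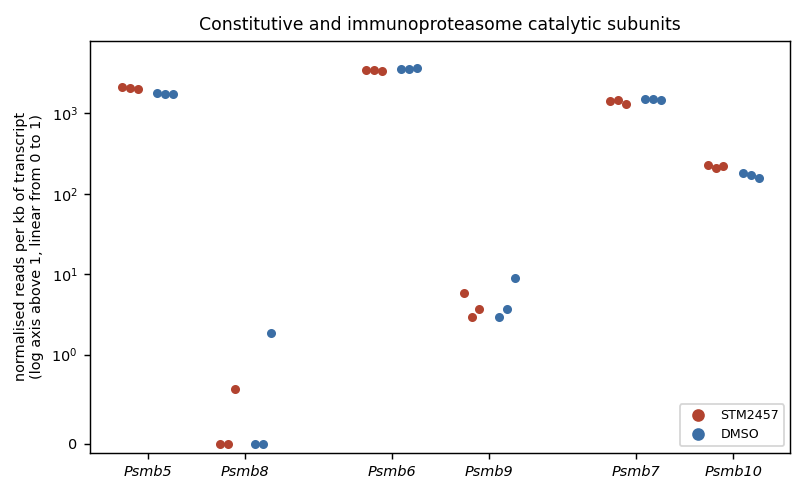
Normalised reads per kb of transcript in each library for the 3 constitutive catalytic subunits and the immunoproteasome subunit that replaces each; the axis is logarithmic above 1 and linear from 0 to 1, and STM2457 points stand left of DMSO points. Psmb5, Psmb6 and Psmb7 lie above 1000 in every library. Psmb10 averages 221 in STM2457 and 170 in DMSO, and Psmb9 4.16 in STM2457 and 5.18 in DMSO.

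Genes for antigen processing that are induced by interferon together with the immunoproteasome were set beside it. Of 9 such genes 4 were called higher and 0 lower. The 4, named after their values were seen, were Tap2 (1.25-fold), Tapbp (1.13-fold, not called with upper-quartile centring), H2-D1 (1.22-fold) and Erap1 (1.26-fold). Of all tested genes 56.3% were called, 30.7% higher and 25.7% lower. The class I genes H2-K1 (0.759-fold, 0.540 to 1.07) and B2m (1.06-fold, 1.01 to 1.12) were not called. With either centring H2-K1, at low levels in both groups, was called lower. B2m was called higher by limma-voom on recovered reads and without STM2457 replicate 1. The peptide transporter gene Tap1 had 154, 148 and 166 normalised reads in STM2457 and 137, 121 and 145 in DMSO (adjusted p = 0.075). It lay higher in all STM2457 libraries but was not called. The transcription factor gene Irf1 had 460, 408 and 435 in STM2457 and 447, 556 and 455 in DMSO, with overlap between the groups (adjusted p = 0.087). With either centring, and without DMSO replicate 1, Irf1 was called lower. Nlrc5, the transactivator of MHC class I genes, had 16.9, 13.9 and 12.9 in STM2457 and 10.0, 11.9 and 6.0 in DMSO (adjusted p = 0.12).

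All 5 tested activators and inhibitors of the core were called, 2 higher and 3 lower, in the same directions with either centring. The share called over all tested genes was 56.3%, with 30.7% higher and 25.7% lower, and no test set these 5 genes against it. Psme3 encodes PA28 gamma, the nuclear activator ring that opens the core without ubiquitin. It had 6087, 6204 and 6058 normalised reads in STM2457 and 4838, 4870 and 4866 in DMSO. The libraries of each group lie close together and the groups far apart (1.26-fold, 1.20 to 1.32, adjusted p = 2.2e-08). Psmf1, for PI31, a binding partner of the core first described as its inhibitor, had 878, 886 and 910 in STM2457 and 732, 778 and 788 in DMSO, without overlap (1.16-fold, 1.08 to 1.25, adjusted p = 7.0e-04). The cytoplasmic activator PA28, built from the products of Psme1 and Psme2 and known as interferon-inducible, went the other way. Psme2 had 745, 684 and 751 normalised reads in STM2457 and 893, 870 and 882 in DMSO, the largest fall among the tested proteasome genes (0.824-fold, 0.765 to 0.887, adjusted p = 6.4e-05). Psme1 had 1328, 1298 and 1356 in STM2457 and 1406, 1536 and 1381 in DMSO. The groups are separate by a small gap, and the call (0.922-fold, 0.863 to 0.984, adjusted p = 0.034) was lost in 5 of 13 alternatives: with other priors, with no filter, and without STM2457 replicate 1 or 2 or DMSO replicate 2. They are neighbours, Psme1 at chr14:55578123-55581529 (plus strand) and Psme2 at chr14:55587441-55591113 (minus strand). Psme4, for the nuclear activator PA200, had 2305, 2292 and 2387 in STM2457 and 2872, 2470 and 2668 in DMSO (0.873-fold, 0.818 to 0.933, adjusted p = 9.5e-04). All its STM2457 libraries were lower, by the least against DMSO replicate 2. Psme2b, an annotated copy of Psme2, had 2, 1 and 1 reads in STM2457 and 4, 5 and 3 in DMSO, and reads of Psme2 may have been shared with it.

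Among the chaperones with Psm names that build the proteasome, 2 of 3 for the 19S base were called higher and 2 of 4 for the 20S core lower. Of all tested genes 30.7% were called higher, 25.7% lower and 56.3% in all. The share called among these 7 genes is near the last of these. Psmd5, a chaperone of the base (S5b), had 2165, 2139 and 2137 normalised reads in STM2457 and 1836, 1630 and 1695 in DMSO. The groups do not overlap (1.25-fold, 1.17 to 1.33, adjusted p = 1.0e-06). Psmd10, for the base chaperone gankyrin, had 508, 498 and 495 in STM2457 and 405, 440 and 434 in DMSO (1.17-fold, 1.08 to 1.28, adjusted p = 0.0026). The base chaperone Psmd9 was not called (0.966-fold, 0.897 to 1.04), and was lower with upper-quartile centring. Of the PAC chaperones, which guide the alpha ring, Psmg1 had 601, 560 and 528 in STM2457 and 685, 622 and 644 in DMSO. Every STM2457 library was lower (0.865-fold, 0.794 to 0.942, adjusted p = 0.0048). Psmg4 had 352, 335 and 292 in STM2457 and 363, 363 and 385 in DMSO. Its call as lower (0.879-fold, 0.789 to 0.979, adjusted p = 0.039) was lost in 4 of 13 alternatives: with no filter, and without STM2457 replicate 2 or 3 or DMSO replicate 3. Psmg2 (1.02-fold, 0.918 to 1.12) and Psmg3 (1.05-fold, 0.899 to 1.22) were not called.

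Single libraries stood low for many of these genes at once. In 28 of the 44 tested genes DMSO replicate 2 was the lowest DMSO library, as it was in 37.2% of all tested genes, and in 29 of the 44 STM2457 replicate 3 was the lowest of its group (36.1% of all tested genes). Without DMSO replicate 2, 11 proteasome genes were called higher and 8 lower, and without STM2457 replicate 3, 12 higher and 7 lower. The median coefficient of variation over the 44 genes was 2.18% in STM2457 and 3.44% in DMSO.

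Levels were set beside each other per kb of transcript, since longer transcripts give more reads. The products of the 14 constitutive core genes sit in the complex in equal numbers, but their transcript levels over all 6 libraries covered a range from 1157 normalised reads per kb for Psma3 to 5438 for Psmb3. Psma7 (4323) and Psmd8 of the lid (3698) were the next highest of all 49 genes by this length. The median level was 2236 normalised reads per kb for the alpha genes, 3040 for the constitutive beta genes, 1828 for the base ATPases and 1494 for the lid. The assembly chaperones with Psm names had a median of 439.8, from 171 for Psmg3 to 627 for Psmg4. The 5 tested activator and inhibitor genes covered a range from 218 for Psmf1 to 2059.8 for Psme3, and the copy Psme2b, under the read minimum, stood at 3.18. The order depends on the transcript chosen for the length. Per kb of all annotated exons the highest were Psma6 (2530.3), Psmb2 (2488) and Psmd2 (2259.7), while Psmb3 stood at 1811, Psmd8 at 1829 and Psma7 at 1287.

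**Figure D4:**
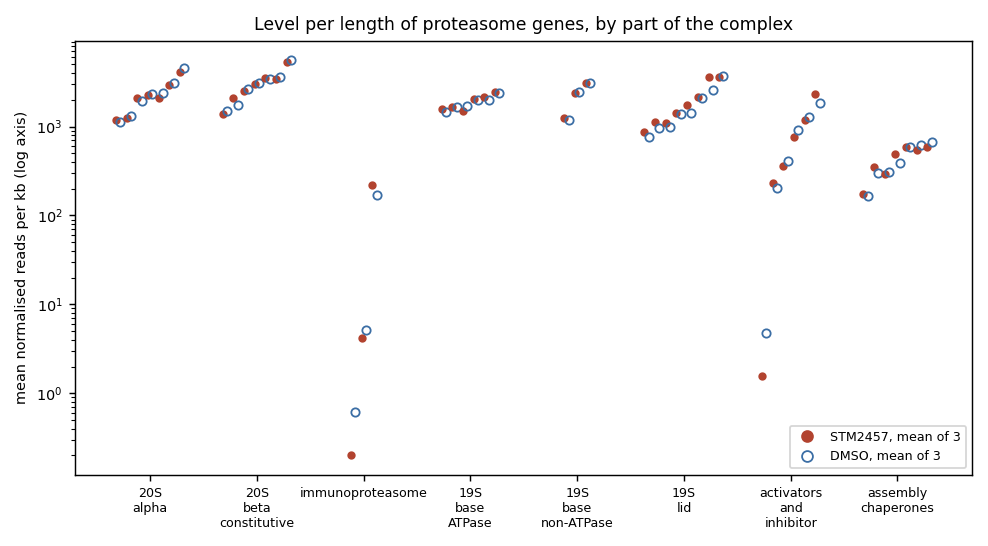
Mean normalised reads per kb of transcript (log axis) of proteasome genes in STM2457 (red, filled) and DMSO (blue, open), ordered by level within each part of the complex; genes with 0 reads and the tissue-specific Psma8 and Psmb11 are not drawn. Averaged over both groups, constitutive core and 19S genes lie between 814 (Psmd6) and 5438 (Psmb3) reads per kb, assembly chaperones between 171 and 627, and Psmb8 and Psmb9 at 0.410 and 4.67.

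The annotated promoters were searched for letters known to be bound by regulators of the proteasome genes. The 250 bases before the RefSeq transcription start (GRCm38.p6) were available for 41 of the 49 genes, not for Psma8, Psmb1, Psmb2, Psmb7, Psmc3, Psmd3, Psmd7 or Psmg2. Shown are the called genes of smallest adjusted p with a promoter here, Psme3 for those higher and Psme2 for those lower, and the 3 called genes that hold an antioxidant response element, a choice made after the values were seen. They are printed 5′ to 3′ on the strand of the gene, each ending at the base before the start. Psme3 lies at chr11:101315963-101316212 on the plus strand, Psmd12 at chr11:107479278-107479527 on the plus strand and Psmb5 at chr14:54617996-54618245 on the minus strand. Psme2 lies at chr14:55591102-55591351 on the minus strand, before the more upstream of its RefSeq starts, and Psmc6 at chr14:45329574-45329823 on the plus strand. Capitals mark the antioxidant response element TGACNNNGC, the letters that NRF1 and NRF2 recognise, and the CCAAT box, each on either strand; Psme2 holds neither.
Psme3: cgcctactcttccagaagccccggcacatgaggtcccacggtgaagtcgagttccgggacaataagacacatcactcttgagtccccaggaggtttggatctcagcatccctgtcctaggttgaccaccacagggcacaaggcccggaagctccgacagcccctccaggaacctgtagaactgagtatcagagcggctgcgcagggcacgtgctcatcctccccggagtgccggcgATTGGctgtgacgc
Psmd12: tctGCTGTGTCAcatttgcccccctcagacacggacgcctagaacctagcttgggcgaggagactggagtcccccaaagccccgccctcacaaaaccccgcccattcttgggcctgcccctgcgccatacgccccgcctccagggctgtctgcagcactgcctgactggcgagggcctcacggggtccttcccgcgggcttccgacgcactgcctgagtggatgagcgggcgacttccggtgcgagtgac
Psmb5: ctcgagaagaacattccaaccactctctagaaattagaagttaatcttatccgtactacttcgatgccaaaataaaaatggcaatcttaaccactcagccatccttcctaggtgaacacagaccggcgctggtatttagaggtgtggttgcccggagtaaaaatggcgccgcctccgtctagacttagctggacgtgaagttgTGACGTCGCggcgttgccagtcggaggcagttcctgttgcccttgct
Psme2: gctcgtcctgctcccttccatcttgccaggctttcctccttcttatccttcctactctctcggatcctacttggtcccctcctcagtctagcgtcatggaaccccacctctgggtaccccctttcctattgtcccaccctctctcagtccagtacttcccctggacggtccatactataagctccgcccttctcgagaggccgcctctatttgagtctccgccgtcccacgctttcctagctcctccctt
Psmc6: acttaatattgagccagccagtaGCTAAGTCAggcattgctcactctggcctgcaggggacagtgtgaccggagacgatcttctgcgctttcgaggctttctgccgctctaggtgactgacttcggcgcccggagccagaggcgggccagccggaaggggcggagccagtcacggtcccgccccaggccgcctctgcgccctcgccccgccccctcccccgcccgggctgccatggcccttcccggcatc

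Searched on both strands, TGACNNNGC was found in 5 of 41 proteasome genes (12.2%) and in 11.5% of all 27025 genes with such a promoter. The 5 were Psmd12 and Psmb5, called higher, Psmc6, called lower, and Psmb6 and Psmd9, not called. CCAAT was found in 14 of 41 (34.1%) and in 37.5% of all genes, the GC box GGGCGG in 22 of 41 (53.7%) and in 35.4%, and the E-box CACGTG in 4 of 41 (9.76%) and in 6.86%. Of the promoters shown, that of Psme3 holds CACGTG, which does not overlap its CCAAT box. A match describes the letters in this window and not a bound site.

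METTL3 methylates adenosine in a short sequence of which GGACT, in DNA letters, is the best-known form. Methylation was not measured here. The letters were counted in the longest protein-coding transcript of each gene that GENCODE vM21 matches to RefSeq. For genes without a match the longest protein-coding transcript was used. The 13 genes called higher had a median of 1.12 GGACT per kb, the 8 called lower 0.385 and the 23 not called 1.29, and the 11013 tested genes with such a transcript had 1.04. No GGACT was found in 4 of the 8 called lower (Psma5, Psma7, Psme1 and Psmg4), in 2 of the 13 called higher (Psma4 and Psmd10) and in 3 of the 23 not called. At least 1 GGACT was found in 92.3% of all tested genes with a transcript and in 91.8% of all those called lower. The transcripts of Psma5, Psma7, Psme1 and Psmg4 are 1239, 914, 1112 and 555 bases long, and the part of length was not tested. Over all genes the medians were 1.08 for those called higher, 1.01 for those called lower and 1.03 for those not called. These are descriptions with no test.

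Genes whose products work with the proteasome outside the Psm names were taken as a list of ubiquitin receptors, shuttles, deubiquitinases, ubiquitin genes and regulators. Of 28 genes tested 11 were called higher, 5 lower and 12 neither, with a median fold of 1.04, where 30.7% of all tested genes were called higher, 25.7% lower and 56.3% in all, with a median fold of 1.01. The share called is near that of all genes. Zfand2a (AIRAP), a heat-shock- and arsenite-induced partner of the 19S particle, had 822, 832 and 805 normalised reads in STM2457 and 458, 484 and 453 in DMSO. At 1.76-fold (1.63 to 1.91, adjusted p = 9.2e-12) it was the gene of this list furthest above 1 and larger than any proteasome gene. The products of the shuttle genes Ubqln2 and Ubqln4 carry ubiquitin-tagged proteins to the proteasome. Ubqln2 had 2789, 3051 and 2828 in STM2457 and 2236, 1993 and 2118 in DMSO (1.37-fold, adjusted p = 1.3e-08). Ubqln4 had 2733, 2763 and 2680 in STM2457 and 2239, 2251 and 2252 in DMSO (1.21-fold, adjusted p = 1.0e-06). Ecpas, which encodes the proteasome adaptor ECM29, had 3179, 3061 and 3112 in STM2457 and 3948, 3724 and 3709 in DMSO (0.822-fold, adjusted p = 9.6e-07). The groups overlapped in none of these 4, which were picked by adjusted p. Over all tested genes 61.8% had no overlap.

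The list also held the transcription factors of the pathway. Nfe2l2, which encodes NRF2, had 5865, 5845 and 6101 normalised reads in STM2457 and 4178, 4693 and 4243 in DMSO (1.36-fold, 1.28 to 1.44, adjusted p = 3.4e-09). Nfe2l1, for NRF1, was among the listed genes, and its library values were added after they were seen. It had 2862, 2706 and 2877 in STM2457 and 3346, 4318 and 3757 in DMSO, with the DMSO libraries far apart but all above the STM2457 libraries (0.743-fold, 0.634 to 0.871, adjusted p = 0.0090). Ddi2, for the protease that activates NRF1, had 1024, 1034 and 1038 in STM2457 and 846, 873 and 818 in DMSO (1.22-fold, 1.14 to 1.31, adjusted p = 1.6e-05). Transcript levels do not measure the cleavage that activates NRF1.

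**Figure D5:**
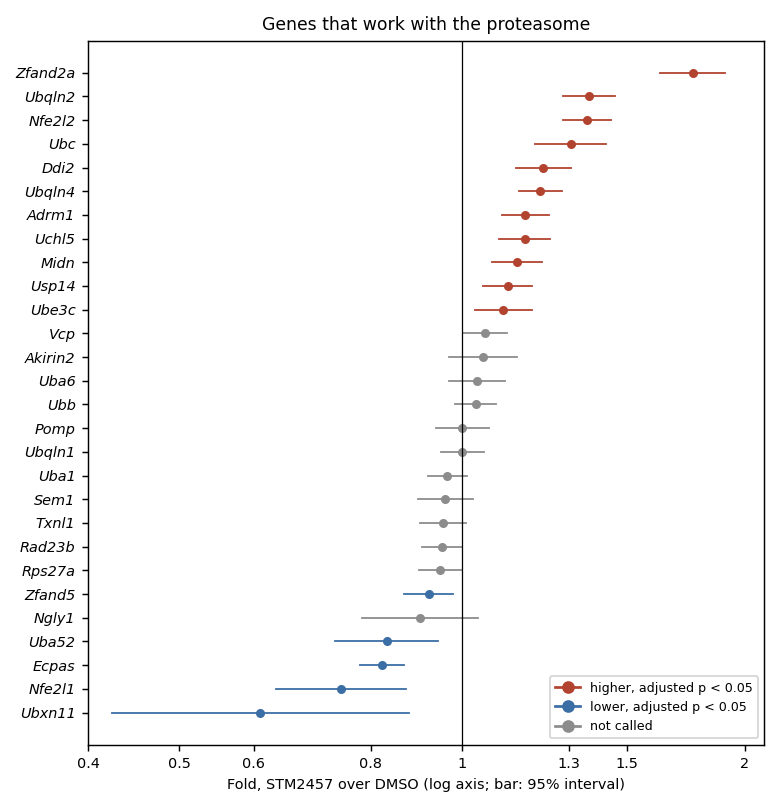
Fold of each of the 28 listed partner genes of the proteasome, STM2457 over DMSO, on a log axis with 95% intervals; red marks genes called higher, blue lower and grey not called by limma on the deposited values. Zfand2a stands alone at 1.76, and Nfe2l2 at 1.36 and Nfe2l1 at 0.743 lie on different sides of 1.

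Whether counting used the strand was not given in the sources used here, and 11 of the 49 genes share exon sequence with an opposite-strand gene. These are Psma4, Psma5, Psmb7, Psmb8, Psmb9, Psmc3, Psmd1, Psmd3, Psmd9, Psmd13 and Psme1, whose reads are uncertain to that extent. The table also has 5 rows marked as pseudogenes of proteasome genes. Of these, 4 are listed at 0 in every library and Psma5-ps is not. Reads of the parent genes may have been shared with such rows. In GRCm38 (GENCODE vM21) the 3 proteasome genes of smallest adjusted p are Psmd7 at chr8:107580381-107588464 (minus strand), Psme3 at chr11:101316213-101323537 (plus strand) and Psmd5 at chr2:34849734-34874968 (minus strand).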

How the data were processed

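Total RNA from LLC cells was sequenced in 6 libraries, 3 per treatment, grouped by the treatment in their titles. HISAT2 2.2.1, featureCounts 2.0.1 (Subread), DESeq2, FastQC 0.11.9 and the GRCm38 build are named, with no roles, per the submitters' processing notes. The authors deposited log2 values per gene and library, which have the form of a regularised log transform that shrinks each library towards the gene's mean. For the most abundant genes 59.9% of a difference survives this shrinkage, so differences on that scale understate the change. From the values, the transform's ridge penalty (60.2), dispersion (1.90 over the mean plus 0.0111) and size factors (0.995 to 1.01) were estimated and the reads recovered. Recovered values came out whole, within 0.05 reads, in 98.7% of cases for genes with a mean under 500 reads and in 72.3% for the most abundant class.

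Calls come from limma 3.58.1 in R 4.3.3 (statmod 1.5.0) on the deposited log2 values, with the group as the only term, a mean-variance trend and robust priors, over the 12618 genes with a mean log2 value of at least 3.32 (10 reads). P-values were Benjamini-Hochberg adjusted over all of them, with a threshold of 0.05. Folds come from limma-voom on recovered reads. The fits were also run on simulated data with far fewer changed genes than were called here, which cannot test the scaling of the libraries. The genes and lists were chosen with earlier results of these data known. Library values are given for Psmb5 to Psmb10, the 10 genes of smallest adjusted p in each direction and members below the read minimum, up to 6 called partner genes and 3 antigen genes; further ones were added after their values were seen. Lengths are of the longest GENCODE vM21 transcript matched to RefSeq. Some genes first listed are not reported here.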

Additional observations from a re-analysis of the deposited data

How the results depend on the processing

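Of the 21 proteasome genes called, 16 kept their call and direction in all 13 alternatives: other priors, limma-voom on recovered reads, both centrings, no filter on low values, a filter at 100 reads, the replicate block and leaving out each library. The exceptions were Psma4, Psmc2, Psmd6, Psme1 and Psmg4. Of the 23 not called, 10 were called in some alternative. Genes called lower numbered 17 with upper-quartile centring and 15 with median centring, against 8 as reported. Centring moved the median difference of all genes by -0.04 and -0.03 on the deposited log2 scale. With the replicate number as a block 13 were higher and 8 lower. Same-numbered libraries had correlations of 0.0501, 0.011 and 0.0399 in their deviations over genes. Libraries of different number had -0.0563 to 0.0218. Correlations this weak do not decide whether the replicate numbers pair the libraries. Leaving out 1 library gave 11 to 14 higher and 7 to 8 lower. With the union of exons as length the median level per kb was 1008 for the alpha genes, 1560 for the constitutive beta genes, 1310 for the base ATPases and 842 for the lid, in place of 2236, 3040, 1828 and 1494. With 3 libraries per group, ratios could not reach an exact p under 0.10. The difference of the Psmb10 to Psmb7 ratio, 5.01 reads per 100, was 4.33 to 5.91 on leaving out 1 library.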
